A study of Mus musculus with 9 samples.

Results

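The cytosolic ribosomal protein genes were studied in mouse normal thymus, thymus tumors and thymus tumors that resisted XIST, measured on the Affymetrix Mouse430_2 array. A probe set was a member when it carried 1 gene symbol and that symbol began with Rpl or Rps and a digit, or with Rplp. Symbols beginning with Rps6k, which are protein kinases, and symbols with -ps, which are pseudogenes, were left out. This gave 104 of the 45101 probe sets on the array and 49 of the 18193 genes that have a probe set to themselves. RefSeq classes 48 of the 49 as protein coding and 1, Rps4l, as a transcribed pseudogene. Rps19bp1 met the rule by its symbol although its protein binds a ribosomal protein and is not one. Of the 104 probe sets, 96 for 46 genes passed a filter on low values, which asked for a signal at or above the median of the array on at least 3 of the 9 arrays. The filter left out 8 probe sets and with them the genes Rpl3l, Rpl39l and Rps16, which therefore have no test.

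The ribosome makes protein from mRNA, and its small subunit reads the message while its large subunit joins the amino acids. Each ribosomal protein sits once in the ribosome, except the acidic P proteins, which form a stalk on the large subunit that recruits translation factors. Messages of ribosomal proteins begin with a pyrimidine tract, through which growth signals acting by mTOR set their translation. In thymocytes, loss of Rpl22 arrests the development of alpha beta T cells, and some ribosomal proteins bind MDM2 and so connect ribosome assembly with p53.

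Each of the 3 groups held 3 arrays of total RNA. The labels give no strain, genotype, age or treatment for any group, and they do not say how resistance to XIST, the RNA that silences an X chromosome, was established. Nothing in them ties the arrays of a group to separate mice. The p-values therefore speak of the scatter among these 9 arrays, and that scatter may be technical. In bulk RNA of this kind, fewer cells of a type and less RNA per cell cannot be told apart.

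Signals are those deposited, computed by MAS5 without a physical unit, and array medians ranged from 13.9 to 25.8. Ribosomal protein probe sets were among the brightest of every array, with median log2 signals of 11.45 to 11.99, and the highest signal of an array was 4353 to 6106. The arrays fell into 4 without and 5 with poly-A spike-in signal, and both sets held all 3 groups. On 1 array the control probe sets stood in another order. There they were matched by sorted row name, which raised their correlation with the other arrays, before the spike-in and Actb values were taken. The Actb 3' to 5' signal ratio, a sign of RNA integrity, was 3.16 in tumor 2, 2.64 in resistant tumor 3 and 1.63 to 1.98 on the other arrays. Double-positive thymocyte markers were lower in both tumor groups (6 of 6 genes), with summed signals of 12137 to 13004 in normal thymus, 2127 to 2884 in tumor and 1829 to 2779 in resistant tumor. The 8 T lineage markers summed to 14142 to 15309, 11050 to 12748 and 10263 to 12179, with 4 of 8 lower in each tumor group. The 7 thymic epithelium markers summed to 4963 to 5290, 84.0 to 226 and 99.7 to 170, with 7 lower in tumor and 6 in resistant tumor. The 5 fibroblast markers summed to 989 to 1086, 2146 to 5070 and 2558 to 6193. Of these, 3 were higher in each tumor group, and 1 was lower in resistant tumor. The part of these cell mixtures in the ribosomal protein values was not tested.

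In tumor against normal thymus, 14 of 46 ribosomal protein genes were higher and 1 was lower, which is 32.6% called (limma, Benjamini-Hochberg adjusted p under 0.05). Over all 11671 genes tested, 42.4% were called, 23.3% as higher and 19.1% as lower. In resistant tumor against normal thymus, 18 of 46 were higher and 1 was lower, or 41.3% called, against 43.3% of all genes with 23.1% higher and 20.2% lower. The share called either way was thus at or under the background in both comparisons, and it is no result about these genes as a group. By direction, 30.4% of members were higher in tumor and 39.1% in resistant tumor, against the 23.3% and 23.1% of all genes. In each comparison 2.17% were lower, against 19.1% and 20.2%. The median fitted log2 change was 0.21 in tumor and 0.24 in resistant tumor, against 0.05 and 0.06 over all genes, and 42 and 43 of 46 changes were above 0. Most of these genes are bright, and the 238 probe sets on the array with a mean log2 signal of 11 or more, members included, had medians of 0.17 and 0.20, close to those of the members. Both comparisons use the same normal thymus arrays. They called 14 genes in common with the same sign, 1 in tumor alone (Rpl6) and 5 in resistant tumor alone (Rpl7, Rpl11, Rps3, Rps4x and Rps18), and none of these 6 was called between resistant tumor and tumor. When the fit blocked on spike-in signal, each of the 6 was called in both comparisons, with adjusted p-values (limma) of 0.039 for Rpl6 in resistant tumor and, in tumor, of 0.03 for Rpl7, 0.00828 for Rpl11, 0.0312 for Rps3, 0.0167 for Rps4x and 0.0115 for Rps18. The single lower gene in each count, Rps4l, passed the filter through its normal thymus arrays alone. The 3 arrays of tumor lay wholly above those of normal thymus for 19 genes and wholly below for 1, where 55.3% of all genes did not overlap in either direction. Resistant tumor lay wholly above for 22 genes and below for 1, against 54.6% of all genes.

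The counts and the medians depended on the scaling and on single arrays. With quantile normalization, 9 genes were higher and 2 lower in tumor, and 10 higher and 2 lower in resistant tumor. The median changes then were 0.026 and 0.036, and 18 and 20 of 46 genes were below 0. With equal array medians, 2 genes were higher and 1 lower in each comparison, and the median over all genes in tumor moved from 0.05 to 0.24 while that of the ribosomal protein genes moved to 0.39. Rpl14 was called under all 3 scalings in both comparisons, and Rpl37 was in resistant tumor. Rps4l is among the lower genes of each of these counts. As it passed the filter through normal thymus alone, its calls carry no weight. In tumor, the count of 15 called genes became 9 without normal thymus 2 or tumor 2 and 10 without normal thymus 3 or tumor 3. In resistant tumor, the count of 19 became 12 without normal thymus 2 or resistant tumor 2. Within the arrays without spike-in signal, the median change was 0.035 in tumor and 0.16 in resistant tumor, and within the arrays with it 0.29 and 0.26. The arrays without it are normal thymus 1, tumor 1 and resistant tumor 1 and 2. The value of 0.035 thus sets tumor 1 against normal thymus 1 alone, and 0.26 rests on resistant tumor 3 alone.

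**Figure D1:**
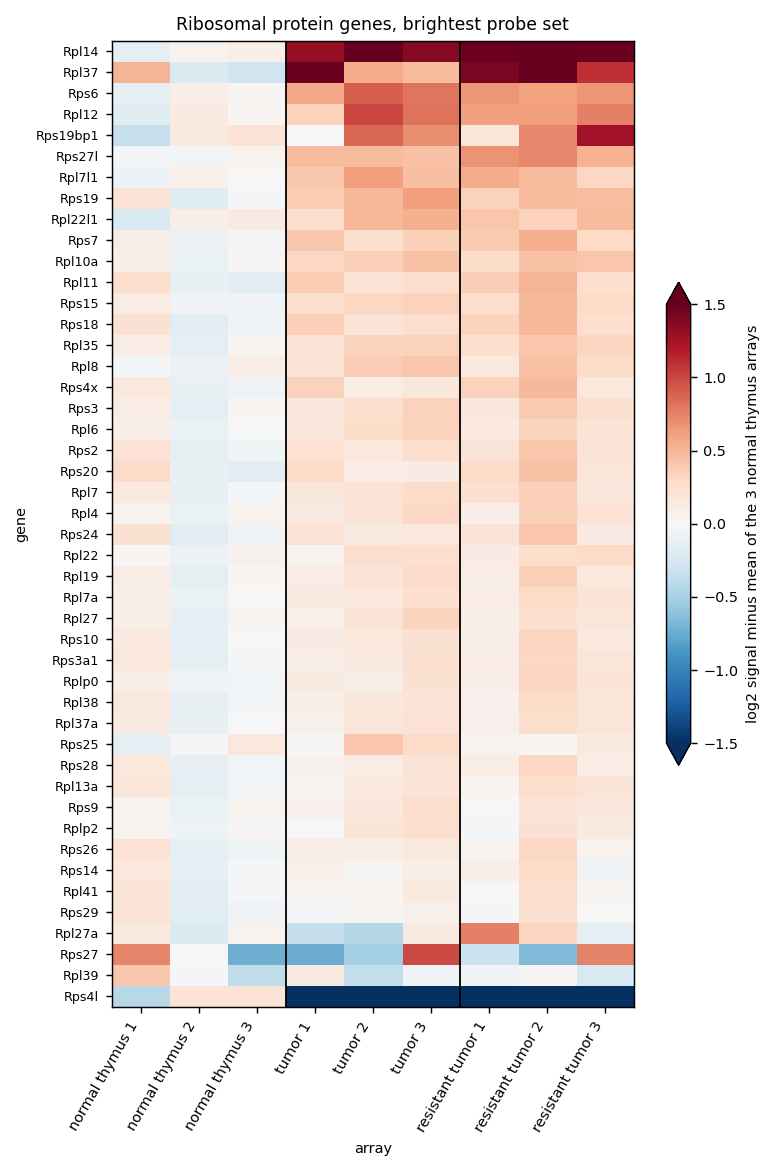
Log2 signal of the 46 tested genes (vertical axis, brightest probe set of each) on the 9 arrays (horizontal axis), with the mean of the 3 normal thymus arrays subtracted and the colour limited to 1.5 either way. As deposited, most genes are slightly above normal thymus in both tumor groups, with Rpl14 at the top and Rps4l at the bottom. With quantile normalization 18 of the 46 changes in tumor and 20 in resistant tumor were below 0.

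The start sites of the members were read in the RefSeq promoter table of assembly GRCm38.p6, which held 43 of the 49 genes. A run of at least 8 C or T bases on the gene's strand, within 25 bases of the start site, was present in 20 of the 43, or 46.5%, against 20.3% of 17491 protein-coding genes. Such a run can lie wholly before the start and so outside the message, and the 20 were not divided by this. In the window from 250 bases before to 50 after the start, searched on both strands, CCGGAA, the core of ETS factor motifs, was in 27 (62.8%, against 20.9% of all). The E-box CACGTG was in 4 (9.3% against 8.91%), the YY1 motif AAGATGGC in 4 (9.3% against 3.57%), and the GC box GGGCGG in 25 (58.1% against 49.2%). A match is a description of the letters and not a site, and windows of a gene with several starts were counted together. Shown from 60 bases before to 20 after the start, 5' to 3' on the gene's strand, are 6 members called higher in both comparisons, with the pyrimidine run in capitals where there is one: Rpl14 at chr9:120571457-120571536 (plus strand), Rps6 at chr4:86857348-86857427 (minus), Rpl22l1 at chr3:28805448-28805527 (plus), Rps27l at chr9:66946026-66946105 (plus, the first of 2 starts), Rpl12 at chr2:32961652-32961731 (plus) and Rps19 at chr7:24884532-24884611 (plus, the first of 3 starts).
Rpl14: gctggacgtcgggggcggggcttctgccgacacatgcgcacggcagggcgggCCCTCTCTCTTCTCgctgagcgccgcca
Rps6: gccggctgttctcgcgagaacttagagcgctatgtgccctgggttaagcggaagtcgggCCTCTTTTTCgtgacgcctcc
Rpl22l1: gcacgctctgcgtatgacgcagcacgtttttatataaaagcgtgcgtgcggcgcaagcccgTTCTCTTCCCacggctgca
Rps27l: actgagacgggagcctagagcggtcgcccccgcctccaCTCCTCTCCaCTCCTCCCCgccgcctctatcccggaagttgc
Rpl12: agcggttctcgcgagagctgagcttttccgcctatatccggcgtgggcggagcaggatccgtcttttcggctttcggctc
Rps19: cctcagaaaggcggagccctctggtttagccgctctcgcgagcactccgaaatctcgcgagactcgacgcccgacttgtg
Rpl14, Rps6, Rpl22l1 and Rps27l hold a run within 25 bases of the start site, those of Rps27l wholly before the start shown. Rpl12 and Rps19 hold none by this definition. These genes are examples and give no share. Of the other genes called higher in both comparisons, Rpl35 holds a run, while Rpl10a, Rpl37, Rpl7l1, Rps15 and Rps7 do not. Rpl8 has no entry in the promoter table.

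The P stalk genes were not called in either comparison. Rplp0, the anchor of the stalk, had signals of 4102, 3677 and 3731 in normal thymus, 4202, 4057 and 4498 in tumor, and 4118, 4789 and 4372 in resistant tumor. Normal thymus and tumor overlapped, while the 3 resistant tumor arrays lay above all normal thymus arrays by a small margin. The log2 difference was 0.15 ± 0.08 in tumor (± gives the SE throughout, with 3 arrays in each group; adjusted p = 0.188 by limma) and 0.21 ± 0.08 in resistant tumor (adjusted p = 0.0765). Rplp2, which pairs with P1 in the stalk, was 4715, 4279 and 4600 in normal thymus, 4539, 5161 and 5390 in tumor, and 4463, 5311 and 4980 in resistant tumor. These groups overlapped, with differences of 0.15 ± 0.09 (limma adjusted p = 0.236) and 0.12 ± 0.09 (adjusted p = 0.353).

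Among the other large subunit genes, 7 of 20 (35%) were higher in tumor and 8 of 20 (40%) in resistant tumor, against 23.3% and 23.1% of all genes. None was lower, and the median changes were 0.21 and 0.23. Rpl14 stood first in both when each gene was taken by its brightest probe set. Its only probe set has a mean log2 signal of 7.77, and those of Rpl12 and Rpl37 have 8.54 and 10.05. None of these genes has a probe set at 11 or more, and dimmer probe sets of members changed more, as given below. The signal of Rpl14 was 101, 116 and 120 in normal thymus, 277, 328 and 292 in tumor, and 312, 319 and 310 in resistant tumor. Every tumor array was over every normal thymus array, and the spread within groups was small beside the gap. The log2 change was 1.41 ± 0.12 (SE, limma adjusted p = 1.70e-05) in tumor and 1.48 ± 0.12 (adjusted p = 1.29e-05) in resistant tumor, and leaving out any 1 array moved the first between 1.34 and 1.47.

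Rpl12, a protein at the base of the stalk, had signals of 239, 299 and 275 in normal thymus, 342, 543 and 474 in tumor, and 414, 417 and 458 in resistant tumor. The groups did not overlap with normal thymus, and the tumor arrays were the most spread. The log2 changes were 0.72 ± 0.17 (limma adjusted p = 0.0069) and 0.67 ± 0.17 (adjusted p = 0.0102). Rpl10a, which lies in the stalk opposite the P proteins, was 3693, 3230 and 3516 in normal thymus, 4315, 4451 and 4693 in tumor, and 4190, 4719 and 4622 in resistant tumor. It rose by 0.37 ± 0.08 in both (limma adjusted p = 0.00534 and 0.00493), and with quantile normalization the change of 0.15 in resistant tumor was not called (adjusted p = 0.0659).

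Rpl37, a small zinc-binding protein of the large subunit, was scattered within groups. It read 897, 543 and 515 in normal thymus, 1751, 927 and 878 in tumor, and 1684, 2026 and 1349 in resistant tumor. In each group the arrays without spike-in signal were the higher ones, and tumor overlapped with normal thymus while resistant tumor did not. The change was 0.84 ± 0.29 in tumor (limma adjusted p = 0.0445) and 1.40 ± 0.29 in resistant tumor (adjusted p = 0.00406). The call in tumor was lost with quantile normalization (adjusted p = 0.0685) and without either of the 2 first resistant tumor arrays, any of the tumor arrays 1 and 2, or the normal thymus arrays 2 and 3, with adjusted p-values of 0.0513 to 0.142. Within the arrays without spike-in signal the changes were 0.96 and 1.04, and within those with it 0.77 and 1.35. As for the medians above, some of these rest on a single array of a group.

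Rpl11, which binds MDM2 together with Rpl5, had signals of 3377, 2601 and 2523 in normal thymus, 3662, 3227 and 3363 in tumor, and 3625, 4005 and 3335 in resistant tumor. Normal thymus 1 lay inside the range of the tumor arrays. The change was 0.28 ± 0.12 in tumor (limma adjusted p = 0.092) and 0.38 ± 0.12 in resistant tumor (adjusted p = 0.0317), and with the replicate number as a block the change in tumor was called too (adjusted p = 0.0451). The call in resistant tumor was lost without normal thymus 2, normal thymus 3, resistant tumor 1 or resistant tumor 2, with adjusted p-values of 0.0658 to 0.123. Rpl6, Rpl8 and Rpl35 rose by 0.26, 0.33 and 0.29 in tumor (limma adjusted p = 0.0338, 0.0226 and 0.0229), and Rpl8 and Rpl35 by 0.29 and 0.33 in resistant tumor (adjusted p = 0.0419 and 0.0134). None of these calls held with quantile normalization, where the adjusted p was 0.108 to 0.186 in tumor and 0.542 for Rpl8 and 0.154 for Rpl35 in resistant tumor.

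Of the small subunit genes, 4 of 19 tested were higher in tumor and 7 of 19 in resistant tumor, none was lower, beside 23.3% and 23.1% of all genes called higher, and the median changes were 0.18 and 0.24. Rps6, the substrate of the S6 kinases, had the largest change when each gene was taken by its brightest probe set. Its only probe set past the filter is a dimmer one, with a mean log2 signal of 8.85. It measured 306, 358 and 338 in normal thymus, 496, 622 and 583 in tumor, and 526, 507 and 529 in resistant tumor, with all tumor arrays over all normal thymus arrays. The change was 0.76 ± 0.11 (SE, limma adjusted p = 0.000596) in tumor and 0.64 ± 0.11 (adjusted p = 0.00159) in resistant tumor. It held with quantile normalization and was lost with equal array medians (adjusted p = 0.114 and 0.368).

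Rps19, the gene most often mutated in Diamond-Blackfan anemia, had signals of 3578, 2726 and 3020 in normal thymus, 4026, 4316 and 4732 in tumor, and 3921, 4306 and 4243 in resistant tumor. Normal thymus 1 was the highest of its group and still under every tumor array. The changes were 0.49 ± 0.11 (limma adjusted p = 0.00509) and 0.43 ± 0.11 (adjusted p = 0.0106). They were 0.17 and 0.20 within the arrays without spike-in signal, where normal thymus 1 is the only array of its group. Within those with it they were 0.66 and 0.56, the second from resistant tumor 3 alone. Rps7, another MDM2 binder, was 3860, 3368 and 3490 in normal thymus, 4716, 4226 and 4565 in tumor, and 4679, 5216 and 4396 in resistant tumor. It rose by 0.33 ± 0.09 (limma adjusted p = 0.0141) and 0.41 ± 0.09 (adjusted p = 0.00492). The call in tumor was lost without normal thymus 2 or normal thymus 3 (adjusted p = 0.0628 and 0.0536) and with quantile normalization (0.0712). Its other probe set, about as bright, changed by 0.22 and 0.23 and was not called (limma adjusted p over all probe sets, 0.0729 and 0.0615).

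Rps15 rose by 0.30 and 0.34 on its brightest probe set (limma adjusted p = 0.0216 and 0.0107), while its other, about as bright, changed by 0.03 and 0.09 and was not called (adjusted p over all probe sets, 0.902 and 0.673). On their brightest probe sets, Rps18 and Rps3 rose by 0.36 and 0.27 in resistant tumor (limma adjusted p = 0.026 and 0.0447), and both calls ended with quantile normalization (0.0576 and 0.541). Rps29 was the brightest probe set of all on the 3 normal thymus arrays, at 5594, 4353 and 4674, and read 4772, 4900 and 5104 in tumor and 4787, 5741 and 4839 in resistant tumor. Its groups overlapped, with changes of 0.02 ± 0.11 and 0.07 ± 0.11. With quantile normalization, which gives every array the same highest values, Rps29 was called lower in both comparisons, at -0.17 and -0.16 (limma adjusted p = 0.0132 and 0.0156). Of the 10 tested genes mutated in Diamond-Blackfan anemia, 2 (20%) were higher in tumor and 3 (30%) in resistant tumor. Over all genes 23.3% and 23.1% were higher, and the medians of the 10 were 0.17 and 0.18.

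**Figure D2:**
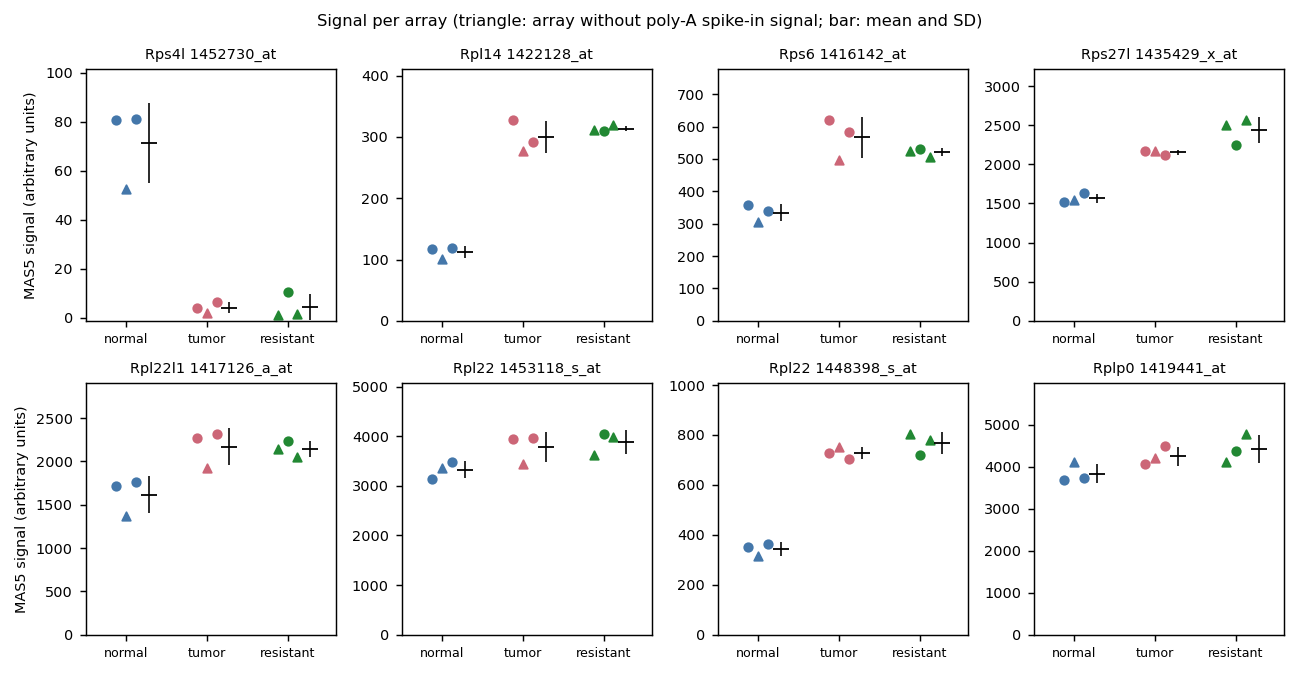
MAS5 signal in arbitrary units on each array for 8 probe sets, by group, with the mean and SD of each group as a bar and arrays without poly-A spike-in signal as triangles. Rps4l falls from 52.7 to 81.1 in normal thymus to at most 10.5 in the tumor groups, Rpl14 and Rps6 stand over normal thymus on all arrays, and Rplp0 overlaps.

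Of the 4 paralogs of ribosomal proteins that were tested, 3 were higher and 1 was lower in both comparisons, a set too small for a share. Rps4l, the pseudogene resembling the X-linked small subunit gene Rps4x, was the only member called lower. Its signal was 52.7, 80.6 and 81.1 in normal thymus, 1.98, 4.17 and 6.31 in tumor, and 1.2, 1.68 and 10.5 in resistant tumor. All 6 tumor arrays were under the median of their array, so only a bound can be given, from the normal thymus mean against the array medians in the dimmer group. Rps4l was at least 4.02-fold lower in tumor and at least 3.38-fold lower in resistant tumor. It passed the filter only through normal thymus, where it is high, so these bounds are a description and no p is given. Rps4x itself read 4069, 3367 and 3501 in normal thymus, 4621, 3917 and 4097 in tumor, and 4602, 5088 and 4050 in resistant tumor. These groups overlapped, with changes of 0.21 ± 0.11 (limma adjusted p = 0.161) and 0.33 ± 0.11 (adjusted p = 0.0381). The second call was lost with quantile normalization (0.433) and without any 1 of normal thymus 2, normal thymus 3, tumor 3, resistant tumor 1 or resistant tumor 2 (0.0542 to 0.138).

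Rps27l, a p53-regulated paralog of Rps27, was higher by all 3 of its probe sets. The brightest read 1548, 1523 and 1628 in normal thymus, 2173, 2168 and 2119 in tumor, and 2500, 2571 and 2253 in resistant tumor. The 3 groups formed 3 separate ranges, the only tested gene among the 46 for which tumor and resistant tumor did not overlap; over all genes 10.4% did not. The changes from normal thymus were 0.46 ± 0.08 (limma adjusted p = 0.00138) and 0.64 ± 0.08 (adjusted p = 0.000201), and the difference between resistant tumor and tumor was 0.18 ± 0.08 (adjusted p = 0.687). The other probe sets gave 0.49 and 0.53 in tumor and 0.67 and 0.70 in resistant tumor. Its partner Rps27 was dim and scattered, at 105, 63.1 and 38.1 in normal thymus, 37.6, 44.3 and 125 in tumor, and 50.5, 39.9 and 106 in resistant tumor, and no direction can be read from it (-0.09 ± 0.54 and -0.08 ± 0.54).

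Rpl22l1, the paralog that Rpl22 represses, measured 1371, 1712 and 1764 in normal thymus, 1928, 2266 and 2321 in tumor, and 2144, 2047 and 2236 in resistant tumor. Each tumor array was over each normal thymus array. The changes were 0.43 ± 0.12 (limma adjusted p = 0.014) and 0.41 ± 0.12 (adjusted p = 0.0168), and the first was lost without tumor 2 or tumor 3 (0.0517 and 0.0566). Rpl22 has 3 probe sets that differ. The brightest read 3352, 3136 and 3485 in normal thymus, 3437, 3947 and 3962 in tumor, and 3615, 3977 and 4053 in resistant tumor, with changes of 0.18 ± 0.09 and 0.22 ± 0.09 that were not called (limma adjusted p = 0.118 and 0.0639). The second was called when the fit blocked on spike-in signal (0.0172). The dimmest read 314, 350 and 365 in normal thymus, 753, 727 and 703 in tumor, and 806, 782 and 719 in resistant tumor. It rose by 1.09 ± 0.10 and 1.16 ± 0.10 (limma adjusted p over all 20917 probe sets, 4.75e-05 and 3.44e-05). The remaining probe set changed by 0.24 (adjusted p = 0.0612) and 0.28 (adjusted p = 0.0356). Rpl22 was thus higher by a clear gap on 1 probe set and not called on the brightest, and the files do not say which part of the gene each probes.

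Rpl7l1, the paralog of Rpl7, read 324, 362 and 346 in normal thymus, 454, 527 and 468 in tumor, and 507, 479 and 427 in resistant tumor. It rose by 0.49 ± 0.11 (limma adjusted p = 0.00582) and 0.45 ± 0.11 (adjusted p = 0.0088). Its other 2 probe sets changed by 0.40 and 0.64 in tumor (limma adjusted p over all probe sets, 0.0498 and 0.0209) and by 0.29 and 0.39 in resistant tumor, where they were not called (0.132 and 0.124). Its partner Rpl7 changed by 0.22 ± 0.09 (limma adjusted p = 0.0703) and 0.26 ± 0.09 (adjusted p = 0.039), and the second call was lost with quantile normalization (0.448) and without any 1 of normal thymus 2 or 3, tumor 2 or 3, or resistant tumor 1 or 2 (0.0528 to 0.156). Rpl39 was dim in all groups, at 50.1 to 86.4, with changes of -0.10 ± 0.23 and -0.09 ± 0.23. Rpl3l, a muscle paralog, and Rpl39l, a testis paralog, did not pass the filter, with group means of 4.95 to 7.60 for Rpl3l and 11.2 to 14.5 for Rpl39l. Rps19bp1 rose when the fit blocked on spike-in signal (limma adjusted p = 0.0092 and 0.000339) or on replicate number (0.0166 and 0.0033) but was not called without a block, at 0.52 ± 0.30 and 0.72 ± 0.30 (adjusted p = 0.197 and 0.0825).

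Across the 96 probe sets, 35 were higher and 1 lower in tumor (over all 20917 probe sets 35.9% were called, 19.6% as higher), and 41 were higher and 1 lower in resistant tumor (36.7% and 19.5%). The size of the change went with how bright the probe set was. Of 64 probe sets with a mean log2 signal of 11 or more, 59 carry a suffix (_a, _s or _x) that marks probes shared between transcripts or genes. In tumor, 15 of these 64 were higher, or 23.4%, against 24.4% of all 238 probe sets as bright, and their median change was 0.21, against 0.17 for the 238. Of the 32 dimmer ones, 20 were higher, or 62.5%, against 19.5% of all dimmer probe sets, with a median of 0.57. In resistant tumor, 22 of the 64 (34.4% against 31.9%) and 19 of the 32 (59.4% against 19.4%) were higher, with medians of 0.25 and 0.64, where the 238 had 0.20. Among the 32 dimmer ones, 4 (Rps4l, 2 of Rps20 and 1 of Rps18) were under the median on all arrays of some group and passed the filter only through the groups where they are high. Leaving such probe sets out everywhere gave 18 of 28 higher in tumor (64.3% against 18.8% of all, median 0.55) and 17 of 28 in resistant tumor (60.7% against 18.4%, median 0.60). The limit of 11 was chosen after the values were seen. With quantile normalization the bright class held 7 higher and 1 lower with a median of 0.039 in tumor (0.031 for the 238), while the dimmer class held 21 higher and 1 lower with 0.54. Of all bright and all dimmer probe sets, 14.3% and 20.5% were then higher. With equal array medians no bright probe set and 9 dimmer ones were higher in tumor, against 1.26% and 10.8% of all. Leaving out 1 array gave 4 to 25 bright and 14 to 20 dimmer ones in tumor, with the lowest bright count without normal thymus 2 or tumor 3 and the highest without normal thymus 1. In resistant tumor it gave 6 to 32 bright, the lowest without normal thymus 2 and the highest without normal thymus 1, and 16 to 19 dimmer ones.

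**Figure D3:**
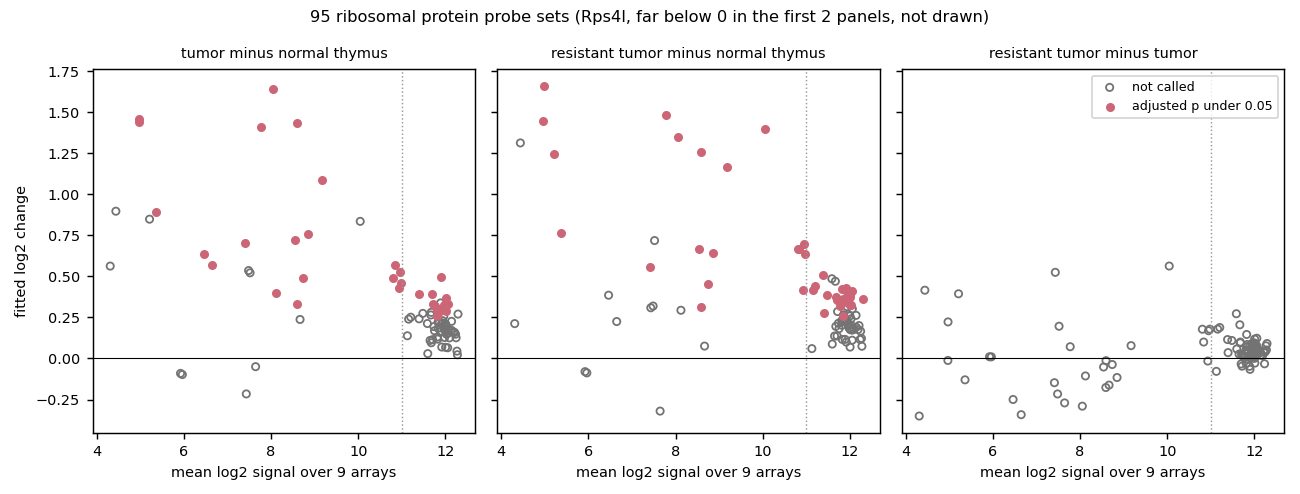
Fitted log2 change (vertical axis) against the mean log2 signal over 9 arrays (horizontal axis) of 95 ribosomal protein probe sets (Rps4l is not drawn) in the 3 comparisons, with called ones filled and a dotted line at 11. Beyond 11 the changes from normal thymus lie close together, with medians of 0.21 and 0.25, and below it they spread up to 1.64 and 1.66. Between the tumor groups none is called. With quantile normalization the medians of the bright class were 0.039 and 0.028.

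The same contrast appeared within single genes. Of 11 genes with probe sets in both classes, the dimmer ones changed more in 10 in tumor, all but Rpl37a, with a median gap of 0.58, and in 9 in resistant tumor, all but Rpl37a and Rps10, with a median gap of 0.47. Without the 4 probe sets named above it was 9 of 10 genes with a gap of 0.48, and 8 of 10 with 0.37. Rps24, a small subunit protein, read 4437, 3359 and 3656 in normal thymus, 4413, 4161 and 4238 in tumor, and 4334, 5042 and 4125 in resistant tumor on its brightest probe set, where the groups overlapped. On its plain _at probe set past the filter it read 104, 172 and 131, then 352, 478 and 425, then 382, 323 and 316, and rose by 1.64 ± 0.19 and 1.35 ± 0.19 (limma adjusted p over all probe sets, 0.000207 and 0.00065). Rps3, which also acts in DNA repair, changed by 0.26 ± 0.10 and 0.27 ± 0.10 on its brightest probe set. On a dimmer one it read 189, 221 and 212 in normal thymus, 488, 639 and 563 in tumor, and 442, 454 and 606 in resistant tumor, and rose by 1.44 ± 0.16 and 1.26 ± 0.16 (limma adjusted p over all probe sets, 0.000126 and 0.000278). Rps20 was under the median of all 3 normal thymus arrays on its dimmest probe set, at 22.4, 15 and 12.2, and read 51.7, 38.9 and 42.3 in tumor and 47.4, 40.9 and 42.7 in resistant tumor. It was at least 2.21-fold and at least 2.20-fold higher by this probe set, which passed the filter only through the tumor groups and is given as a description, with no p. On its brightest the changes were 0.18 ± 0.13 and 0.30 ± 0.13 and were not called. The part of shared probes and of brightness in these pairs was not tested. These genes were singled out after their values were seen.

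**Figure D4:**
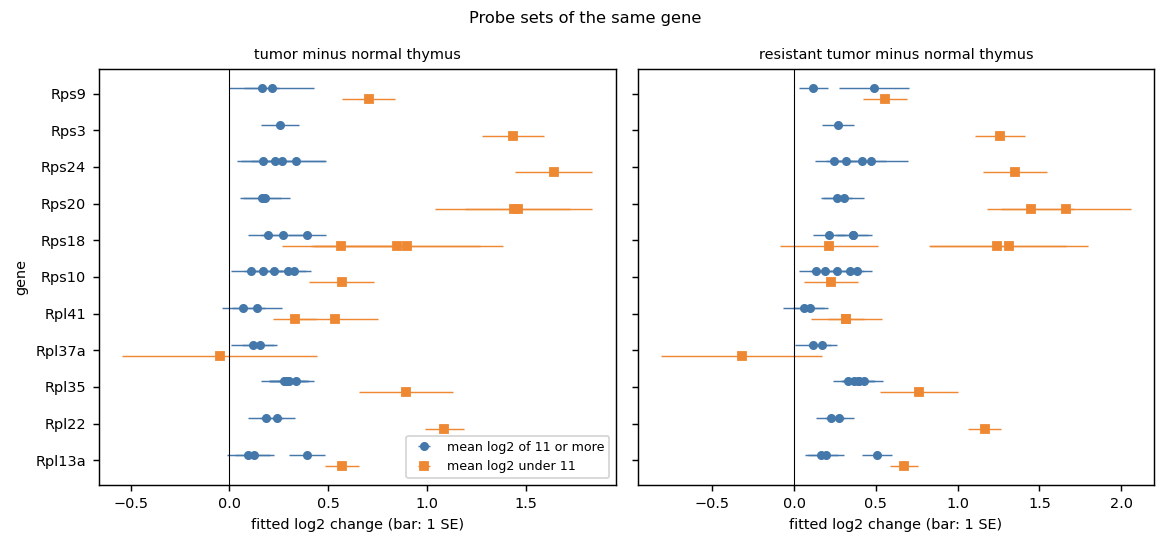
Fitted log2 change from normal thymus (horizontal axis, bar 1 SE) of each probe set of 11 genes (vertical axis) that have probe sets with a mean log2 of 11 or more (blue circles) and under 11 (orange squares). The orange squares lie to the right of the blue circles in median for 10 of 11 genes in tumor and 9 of 11 in resistant tumor.

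Between resistant tumor and tumor, 0 of 46 genes and 0 of 96 probe sets were called by limma, where the background was 0.36% of genes and 0.215% of probe sets. At an unadjusted p under 0.05 there was 1 gene, Rps27l, and no probe set, where 7.23% of all genes and 6.08% of all probe sets were, and the smallest adjusted p among the genes was 0.687. The median difference was 0.03 against -0.02 over all genes, and it was -0.01 with quantile normalization and -0.22 with equal array medians, where all genes moved to -0.26. Leaving out Rps4l, which was under the array median in both groups, fitted differences ranged from -0.16 for Rps25 to 0.56 for Rpl37, each with overlapping groups. A p that misses the threshold does not show that the tumor groups had the same levels.

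Genes that work with the ribosomal proteins were taken from lists outside the rule, and their counts stand beside the 23.3% (tumor) and 23.1% (resistant tumor) of all genes called higher and 19.1% and 20.2% called lower. Rpsa and Fau, ribosomal proteins with other symbols, were not called in either comparison, at 0.23 and 0.15 in tumor and 0.27 and 0.13 in resistant tumor. Of 16 translation factors and other messages with a pyrimidine tract, 5 were higher in tumor (31.2%) and 9 in resistant tumor (56.2%) and none was lower, with medians of 0.28 and 0.26. Eef1d, an exchange factor for elongation factor 1, rose by 0.65 ± 0.17 and 0.90 ± 0.17 (limma adjusted p = 0.011 and 0.00202). Eif4b, a helper of the initiation helicase, rose by 0.41 ± 0.13 and 0.52 ± 0.13 (adjusted p = 0.0246 and 0.00839). Eef1a1, the most abundant elongation factor, was not called, at 0.08 ± 0.10 in both.

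Of 13 genes of the mTOR axis, 5 were higher in each comparison (38.5%), none was lower in tumor and 2 were lower in resistant tumor. Eif4ebp1, the inhibitor of cap binding that mTOR phosphorylates, read 123, 132 and 137 in normal thymus, 630, 570.5 and 744 in tumor, and 378, 644 and 730 in resistant tumor. It rose by 2.31 ± 0.22 and 2.11 ± 0.22 (limma adjusted p = 3.91e-05 and 6.59e-05). Larp1, which binds the pyrimidine tract of ribosomal protein messages, rose by 0.69 ± 0.13 and 0.61 ± 0.13 (adjusted p = 0.00208 and 0.00394). Tsc2, an inhibitor of the axis, rose by 0.89 ± 0.16 and 0.68 ± 0.16, and the cap-binding factor Eif4e by 0.59 ± 0.15 and 0.51 ± 0.15. Pdcd4 and Eif4ebp2, inhibitors of initiation, fell by 0.45 and 0.34 in resistant tumor (adjusted p = 0.0118 and 0.0352). Of 76 mitochondrial ribosomal protein genes, 19 were higher and none lower in tumor (25%), and 27 were higher (35.5%) and 2 lower in resistant tumor, with medians of 0.30 and 0.26. Mrpl48 rose by 1.12 ± 0.27 in tumor (adjusted p = 0.0085) and Mrpl33 by 1.11 ± 0.18 in resistant tumor (adjusted p = 0.000891). None of these lists had a call between resistant tumor and tumor.

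**Figure D5:**
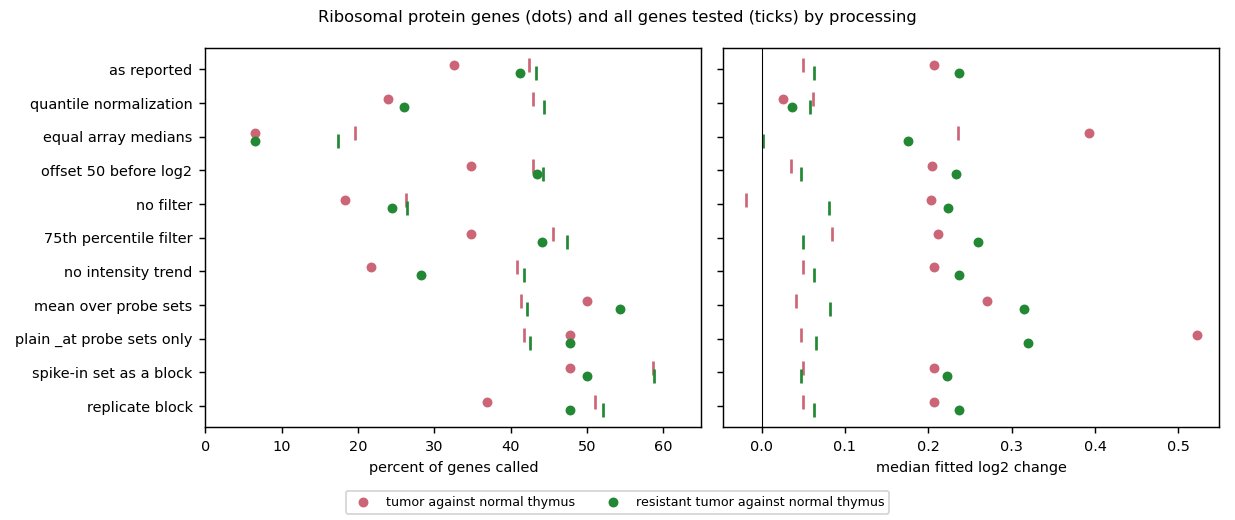
Percent of genes called (left) and median fitted log2 change (right) for the ribosomal protein genes (dots) and all genes tested (ticks of the same colour) under each setting, for both comparisons with normal thymus. The share of ribosomal protein genes called, 32.6% and 41.3% as reported, moves with the setting. Their median of 0.21 in tumor falls to 0.026 with quantile normalization and rises with equal array medians, as that of all genes then does.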

How the data were processed

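The authors made the deposited linear intensity values with MAS5, per the submitters' processing notes. No source used here gives its version or scaling target. In the deposited values, the mean after trimming 2% at each end was 100.03 on every array, so the arrays already shared a scale by that measure. RNA was extracted with Trizol and labelled with biotin, per the labels' protocols. Before log2, values under 1 were raised to 1. No normalization was added. A probe set was kept at or above the array median on at least 3 of 9 arrays, and a gene was represented by its brightest one (by mean log2). Group means were fitted over the 9 arrays together by limma 3.58.1 (R 4.3.3), using an intensity trend and 6 residual degrees of freedom. Tests were two-sided and adjusted by Benjamini-Hochberg over all 11671 genes (or all 20917 probe sets), and called under 0.05. The fit was tested on simulated data.

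The members and gene lists were chosen with earlier results of these data known. Genes were named by a rule: per comparison the 10 largest called increases and decreases, paralogs and their partners, P stalk genes, genes of T cell leukemia, Rps19bp1, and up to 4 called genes of each other list. Rpl6, Rpl8, Rpl35, Rpl37a, Rps3, Rps10, Rps15, Rps18, Rps20, Rps24, Rps25, Rps29, Rpsa, Fau and Eef1a1 were added after their values were seen. A fold of "at least" sets the brighter group's mean log2 against, per array of the dimmer group, the higher of its own value and the array median. Alternatives were quantile normalization, equal array medians, 50 added before log2, no filter, a 75th percentile filter, no trend, the mean over probe sets, plain _at probe sets, array set or replicate number as a block, and each array left out. Plots used matplotlib 3.10.9 (Python 3.11.15). No per-sample column was left unused. Deviations of same-numbered arrays correlated at 0.403 to 0.695 for normal thymus with tumor. In these groups, same-numbered arrays also agree in the presence of spike-in signal. With resistant tumor they ran from -0.388 to 0.54 for normal thymus and from -0.354 to 0.584 for tumor. The negative values are those of resistant tumor 2, which lacks spike-in signal where normal thymus 2 and tumor 2 have it. The correlations therefore cannot tell a pairing by number from the array set, and the reported fit used no pairing.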

Additional observations from a re-analysis of the deposited data

How the results depend on the processing

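Median changes and counts of called ribosomal protein genes and probe sets are given here for tumor and then resistant tumor against normal thymus, beside the reported 0.21 and 0.24, 15 and 19 genes, and 36 and 42 probe sets. With quantile normalization the medians were 0.026 and 0.036, and the count in resistant tumor was 12. With equal array medians there were 3 and 3 genes and 10 and 8 probe sets, the tumor median was 0.39, and the median of resistant tumor against tumor was -0.22. Without the filter 9 and 12 genes were called, and without the intensity trend 23 and 26 probe sets. The mean over probe sets gave 23 genes in tumor. Plain _at probe sets alone gave 13 and 11 probe sets, 11 genes in resistant tumor and a tumor median of 0.52. Blocking on spike-in signal, added after seeing earlier results of the data, 57 probe sets were called in tumor, and all 15 and 19 genes were among the 22 and 23 then called. Within arrays without spike-in signal the tumor median was 0.035, from tumor 1 against normal thymus 1 alone. Leaving out 1 array gave 9 to 20 and 12 to 23 genes, 20 to 43 and 23 to 50 probe sets, and medians of 0.14 to 0.28 and 0.18 to 0.28. For resistant tumor against tumor it gave 0 genes, 0 probe sets and medians of -0.02 to 0.08. The causes were not tested. The replicate block, fitted over all 9 arrays, gave 17, 22 and 0 genes and lost no call. It added Rpl11 and Rps19bp1 in tumor and Rpl22, Rps19bp1 and Rps20 in resistant tumor. Whether the numbers pair arrays is not known, and in normal thymus and tumor they go with the spike-in signal. The split of probe sets by brightness, at 11 or 9, was added after seeing the data. At 9 the dimmer class held 14 and 12 of 25 higher, against 18.8% and 18.5% of all probe sets under 9. No ribosomal protein gene named by the rule reversed its direction while called under any of these settings. Genes added later, and those without a probe set of their own, were not part of that count. Of the genes added later, Rps29 changed by 0.02 and 0.07 as reported and was called lower in both comparisons with quantile normalization. The number of arrays, 3 per group, limits the precision.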

Other observations

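Another 110 probe sets name a ribosomal protein symbol together with other symbols, mostly pseudogenes and predicted genes, and so fall outside the members. They hold 46 ribosomal symbols, 31 of which have no probe set of their own, Rpl3, Rpl5, Rpl10 and Rplp1 among them. Of the 105 that passed the filter, 33 were higher and 1 lower in tumor against normal thymus, and 43 were higher and 1 lower in resistant tumor, with medians of 0.23 and 0.28. Over these and the probe sets with 1 symbol together, 19.6% were higher in each comparison. Between resistant tumor and tumor none was called by limma.

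Rpl5, which carries 5S RNA to the ribosome and binds MDM2, shows again that probe sets naming the same gene gave different changes. On the brightest it read 4361, 3363 and 3599 in normal thymus, 4053, 4251 and 4448 in tumor, and 3878, 4612 and 4260 in resistant tumor, and it was not called (limma adjusted p = 0.236 and 0.239). On a dimmer one it read 142, 128 and 122, then 457, 384 and 370, then 409, 389 and 444, and rose by 1.62 and 1.66 (limma adjusted p = 1.84e-05 and 1.78e-05). On another it rose by 1.64 and 1.80. These probe sets also name the pseudogene Rpl5-ps2, and which transcript they measured cannot be told apart. Rplp1, the third P stalk protein, shared its probe set with a predicted gene and changed by 0.10 and 0.13, which was not called. Rpl10, mutated in some human T cell leukemias, shared a probe set with a predicted gene and changed by 0.16 and 0.20, also not called. Rpl36a and its paralog Rpl36al shared a probe set, which rose by 0.34 in both comparisons (limma adjusted p = 0.0102 and 0.0103).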
